A study of Mus musculus with 9 samples.

Results

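The 10 photoreceptor fate transcription factors described here are Nrl, Crx, Otx2, Rorb, Prdm1, Neurod1, Mef2c, Mef2d, Thrb and Rxrg, chosen by gene symbol and taken from 20 probe sets that the array annotation ties to these genes alone. They are 10 of 18193 genes measured, and each gene is represented by its probe set with the highest mean over the 9 arrays, with the others as a check. RNA came from mouse retinal cells sorted by fluorescence. The rhoGFP line (rhoEGFP), a reporter line for rod photoreceptors, gave GFP-positive and GFP-negative cells at postnatal day 4 (P4), and the nestinGFP line (pNestin-GFP), a reporter for the progenitor filament nestin, gave GFP-positive cells at postnatal day 0 (P0). All mice had the mixed C57BL/6J-129/Ola background, every group has 3 biological replicates, and 6 to 8 mice were pooled for each. No GFP-negative nestinGFP cells are analysed here, so line, age and sorted population differ together wherever the nestinGFP group is compared.

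Photoreceptors arise from precursors that leave the cell cycle and switch on Otx2, a homeobox factor needed for photoreceptor fate. Otx2 activates its relative Crx, which drives the genes of both rods and cones, and Prdm1, a zinc-finger repressor that keeps Otx2-positive cells from the bipolar fate. Rorb, an orphan nuclear receptor, and Crx act upstream of Nrl, the leucine-zipper factor that directs precursors to become rods. Mef2d is a MADS-box factor that works with Crx at photoreceptor enhancers, Mef2c is its paralog, and Neurod1 is a basic helix-loop-helix factor of photoreceptors. Thrb, a thyroid hormone receptor, and Rxrg, a retinoid X receptor that can pair with it, belong to the cone programme.

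In RefSeq (GRCm38.p6) all 10 genes had promoter windows, 18 in all, and the 250 bases before each start were searched on both strands. The letters were TAATCC (a Crx and Otx2 site), AGGTCA (a nuclear receptor core site), CANNTG (an E-box, the kind bound by Neurod1) and TGCTGA (a Maf-type core site, the kind bound by Nrl). Shown are the windows of Crx, Nrl and Rxrg, whose levels differed most between rhoGFP-positive and nestinGFP-positive cells, with every match in capitals.
Crx: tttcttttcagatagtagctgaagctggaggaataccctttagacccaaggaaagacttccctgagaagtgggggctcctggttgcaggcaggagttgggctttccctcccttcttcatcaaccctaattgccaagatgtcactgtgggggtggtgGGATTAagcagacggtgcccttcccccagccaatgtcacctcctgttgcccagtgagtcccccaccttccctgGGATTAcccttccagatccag
Nrl: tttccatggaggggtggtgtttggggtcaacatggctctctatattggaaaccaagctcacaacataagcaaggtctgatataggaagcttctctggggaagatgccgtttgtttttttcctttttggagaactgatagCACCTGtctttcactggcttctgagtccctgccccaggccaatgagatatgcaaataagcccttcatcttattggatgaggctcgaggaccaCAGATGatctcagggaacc
Rxrg: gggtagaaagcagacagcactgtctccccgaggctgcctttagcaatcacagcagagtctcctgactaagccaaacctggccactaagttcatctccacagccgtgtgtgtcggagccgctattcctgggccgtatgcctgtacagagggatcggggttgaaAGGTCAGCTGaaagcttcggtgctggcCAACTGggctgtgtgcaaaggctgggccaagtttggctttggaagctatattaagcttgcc
The Crx window, chr7:15879956-15880205 on the minus strand, held TAATCC on the opposite strand at positions -94 and -21 from the start, where its letters read GGATTA. Of all 32851 windows 6.25% held TAATCC and 0.295% held it at least 2 times. The Nrl window, chr14:55524253-55524502 on the minus strand, held E-boxes at -111 and -19 and none of the other letters, and 66.2% of all windows held an E-box. The Rxrg window shown, chr1:167618015-167618264 on the plus strand, is the later of 2 starts and held AGGTCA at -88 (14% of all windows), an E-box overlapping it at -84 and another at -61. The earlier Rxrg window, chr1:167598112-167598361, held none of these letters. Among genes whose windows are not shown, Neurod1 had TGCTGA at -50 and -44 on the opposite strand, and 1.66% of all windows held it at least 2 times. TGCTGA also occurred in windows of Mef2d, Rorb, Otx2 and Mef2c, and 16.1% of all windows held it. TAATCC occurred in windows of Otx2 and Thrb, and AGGTCA in those of Thrb and Mef2c. E-boxes occurred in windows of Neurod1, Prdm1, Mef2c, Thrb, Otx2 and Rorb. These matches describe letters in a window and not binding.

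Values are log2 signals after RMA normalization by the authors, so 1 unit is a 2-fold difference, and RMA compresses low signals. Calls needed a limma adjusted p under 0.05 (Benjamini-Hochberg over all 18193 genes) and a difference of 2-fold or more. The array medians lay between 6.08 and 6.17, and the median standard error of a difference was 0.14 log2 units, set by 3 arrays a group. The 6 rod markers all rose in the rhoGFP-positive cells, with log2 summed levels of 15.1 to 15.3 against 11.5 to 12.7 in rhoGFP-negative and 10.2 to 12.0 in the nestinGFP-positive arrays. The 7 progenitor markers summed to 11.2 to 12.2, 13.2 to 14.2 and 14.3 to 14.6 in the same order, and 6 of them fell in the rhoGFP-positive cells in each comparison. The marker not called was Nes, the gene of the nestin reporter, at 8.04 in rhoGFP-positive, 8.60 in rhoGFP-negative and 8.60 in nestinGFP-positive cells. The rhoGFP-negative minus nestinGFP-positive difference of Nes was 0.00 (95% interval -0.41 to 0.41), so the nestin reporter's own gene did not separate these groups. Within the P4 fractions replicate 3 had the highest progenitor sum, 12.2 and 14.2. The 18S control signal was 13.6, 13.6 and 12.1 on the replicate 1 arrays and 9.65 to 10.4 on the 6 others. The actin 3' minus 5' difference, a sign of RNA integrity, was 0.85 to 0.97 in the rhoGFP-positive and 0.64 to 0.68 in the rhoGFP-negative arrays. In sorted bulk samples fewer cells of a type and less RNA per cell cannot be told apart.

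**Figure D1:**
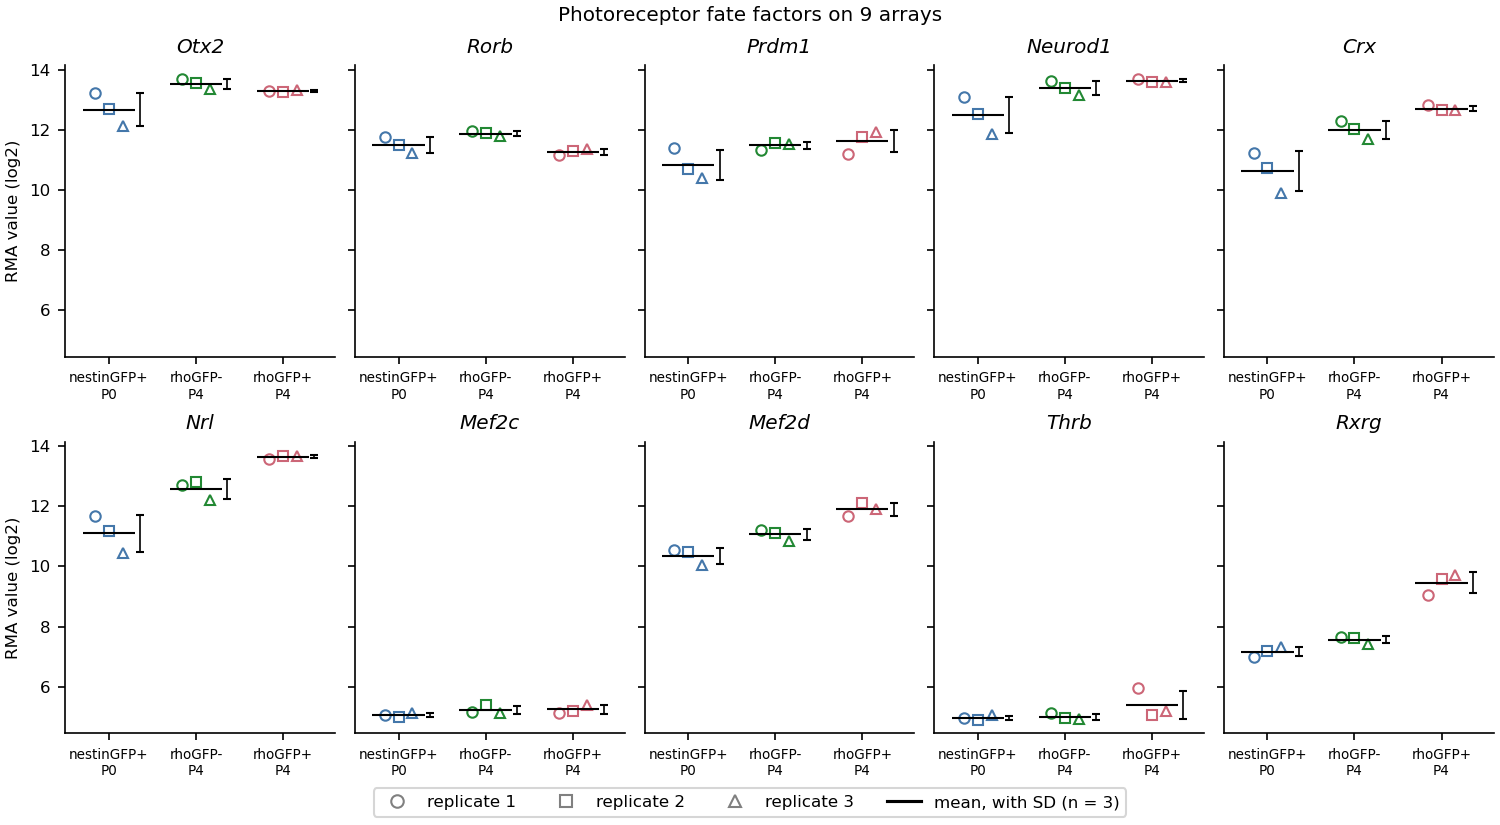
Each panel plots the log2 RMA value of a gene on the 9 arrays, with the symbol giving the replicate number, a bar for the group mean and an error bar for the SD (n = 3). Nrl, Crx, Mef2d and Rxrg separate the 3 groups without overlap, highest in the rhoGFP-positive cells. Otx2 also separates them, by small gaps and with the rhoGFP-negative cells highest. Rxrg stands high in the rhoGFP-positive cells at 9.06 to 9.71, and Mef2c and Thrb stay near the lower end of the scale.

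Between the P4 fractions Nrl and Rxrg were called, both higher in the rod-reporter cells, and the other 8 factors were not. Nrl was 2.09-fold and Rxrg 3.69-fold higher in the rhoGFP-positive cells. This comparison sets cells of the same age and line against each other, split by the rod reporter. The 2 members called are a count near the background, as 10.9% of all genes were called in that comparison. Arrays did not overlap in 6 of the 10, against 38.2% of all genes. Of these, 4 were higher in the rhoGFP-positive cells, and Otx2 and Rorb were lower. With no fold minimum 4 members passed, against 24.3% of all genes. Those added were Mef2d (0.84, limma adjusted p = 0.00471) and Rorb (-0.61, adjusted p = 0.00968). The split of called from uncalled members thus rests in part on the 2-fold minimum, which Nrl passed narrowly at 1.06. The median difference of the members was 0.32, against 0.01 over all genes.

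Between rhoGFP-positive cells at P4 and nestinGFP-positive cells at P0, 5 of 10 members rose and 0 fell. The rises were in Nrl (5.81-fold), Rxrg (4.87-fold), Crx (4.20-fold), Mef2d (2.92-fold) and Neurod1 (2.19-fold). Of all genes 15.6% were called here, 5.06% as higher and 10.5% as lower. With no fold minimum 6 members passed, against 35.8% of all genes. Arrays did not overlap in 8 of 10 members, against 47.8% of all genes, and 7 members had an unadjusted limma p below 0.05, against 44.9% of all genes. The median of the members was 0.97, against 0.06 over all genes.

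Between the rhoGFP-negative cells at P4 and the nestinGFP-positive cells, Nrl (2.79-fold) and Crx (2.58-fold) rose and the other 8 members were not called. Of all genes 0.989% were called in this comparison, 0.385% as higher, and 2.03% with no fold minimum, where the same 2 members passed. All 10 members had a difference above 0, and the share of all genes above 0 is not given here. The dim Thrb (0.03, 95% interval -0.42 to 0.48) and Mef2c (0.17, -0.08 to 0.43) had intervals across 0. The median of the members was 0.68 against 0.03 over all genes, and 8 had arrays that did not overlap, against 20.6% of all genes. The 3 comparisons share their groups, so their values are given side by side and not as support for each other.

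**Figure D2:**
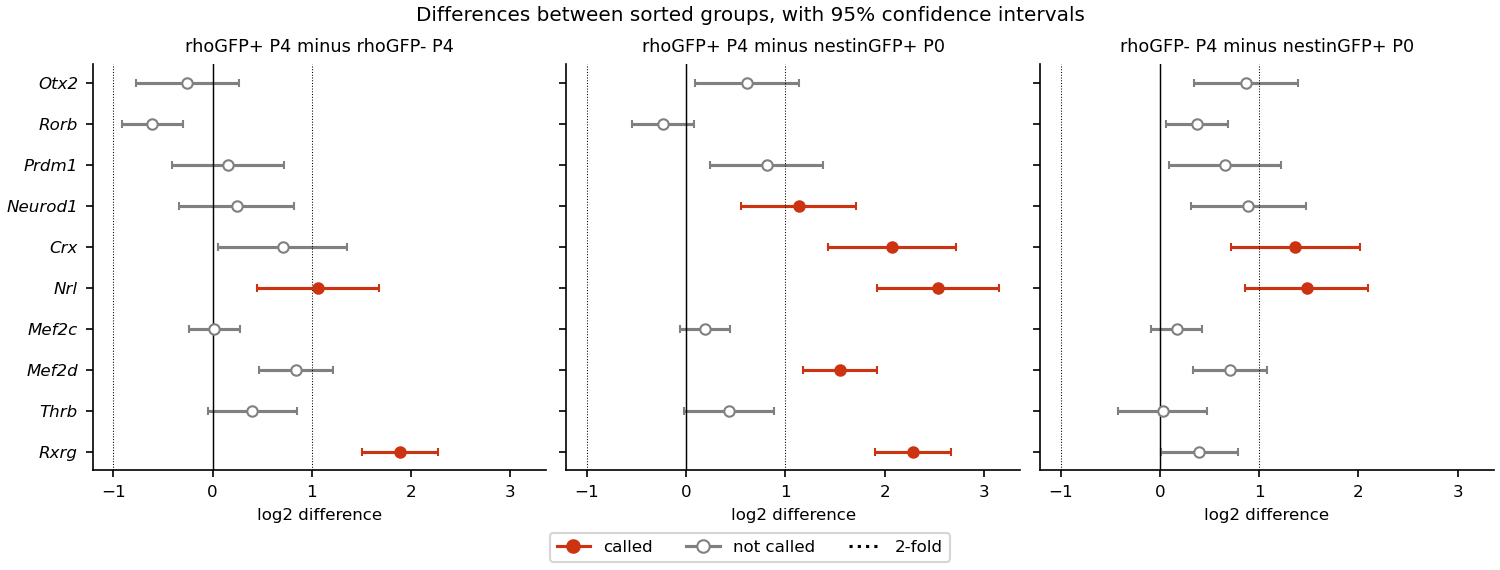
Points give the log2 difference of each of the 10 genes in the 3 comparisons and bars the 95% confidence interval from limma; filled red points were called and dotted lines mark a 2-fold difference. Called members number 2, 5 and 2 from left to right, and all lie above 0.

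Otx2, which has 1 probe set here, was high in all 3 groups and was not called in any comparison. It stood at 13.31, 13.25 and 13.32 in rhoGFP-positive replicates 1 to 3, at 13.70, 13.56 and 13.37 in the rhoGFP-negative replicates and at 13.24, 12.68 and 12.12 in the nestinGFP-positive replicates. Every rhoGFP-negative array lay above every rhoGFP-positive array, by little, and the nestinGFP-positive arrays were lowest and most spread. The rhoGFP-positive minus rhoGFP-negative difference was -0.25 (95% interval -0.78 to 0.27). Against the nestinGFP-positive cells the rhoGFP-positive cells were at 0.61 (95% interval 0.09 to 1.14, adjusted p = 0.0679). The rhoGFP-negative minus nestinGFP-positive difference was 0.86 ± 0.23 (SE, limma adjusted p = 0.0882). Without nestinGFP-positive replicate 1 the latter was 1.14 and called (adjusted p = 0.0208).

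Rorb, on its brightest probe set, was lower in the rod-reporter cells than in their neighbours, by less than 2-fold. Its values were 11.18, 11.29 and 11.36 in rhoGFP-positive, 11.95, 11.89 and 11.80 in rhoGFP-negative and 11.77, 11.51 and 11.24 in nestinGFP-positive replicates. The P4 fractions did not overlap, and the difference of -0.61 ± 0.14 (SE) had an adjusted p of 0.00968 in limma without reaching the 2-fold minimum. Its other 2 probe sets gave 0.09 ± 0.20 and -0.27 ± 0.46 (SE) for the same difference, so the probe sets of Rorb disagree. Against the nestinGFP-positive cells the 3 probe sets gave -0.23, 0.57 and 0.13, none of them called.

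Prdm1, which has 1 probe set here, was not called between the P4 fractions (0.16, 95% interval -0.41 to 0.72). It stood at 11.21, 11.78 and 11.93 in rhoGFP-positive, 11.35, 11.56 and 11.54 in rhoGFP-negative and 11.39, 10.70 and 10.40 in nestinGFP-positive replicates. The groups overlapped through the replicate 1 arrays, where nestinGFP-positive cells were as high as the P4 cells. The rhoGFP-positive minus nestinGFP-positive difference was 0.81 ± 0.25 (SE, limma adjusted p = 0.0314), below the 2-fold minimum. It was called at 1.02 without rhoGFP-positive replicate 1, at 1.09 without nestinGFP-positive replicate 1 and at 1.30 without all 3 replicate 1 arrays. Without those 3 arrays it was also called between rhoGFP-negative and nestinGFP-positive cells (1.00, adjusted p = 0.0383).

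Neurod1 rose between P0 nestinGFP-positive and P4 rhoGFP-positive cells and was not called between the P4 fractions. The rhoGFP-positive replicates stood at 13.69, 13.61 and 13.61, the rhoGFP-negative at 13.63, 13.39 and 13.16, and the nestinGFP-positive at 13.09, 12.54 and 11.88. Both P4 fractions lay above all nestinGFP-positive arrays, and on this brighter probe set they overlapped with each other. The difference was 1.13 ± 0.26 (SE, limma adjusted p = 0.00655) against the nestinGFP-positive cells and 0.24 (95% interval -0.33 to 0.82) between the P4 fractions. The other Neurod1 probe set gave 1.05 and 0.27, and on it the P4 fractions did not overlap, with rhoGFP-positive arrays higher. On the brighter probe set the call against the nestinGFP-positive cells needed nestinGFP-positive replicate 3, without which the difference was 0.82. Without nestinGFP-positive replicate 1, Neurod1 was also called between rhoGFP-negative and nestinGFP-positive cells (1.19, adjusted p = 0.0279).

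Crx rose in both P4 fractions relative to the nestinGFP-positive cells. It stood at 12.82, 12.66 and 12.66 in rhoGFP-positive, 12.29, 12.04 and 11.69 in rhoGFP-negative and 11.25, 10.75 and 9.92 in nestinGFP-positive replicates. All 3 groups were separate, in the order nestinGFP-positive, rhoGFP-negative, rhoGFP-positive. The difference from the nestinGFP-positive cells was 2.07 ± 0.29 (SE, limma adjusted p = 0.000356) for the rhoGFP-positive and 1.37 ± 0.29 (adjusted p = 0.0478) for the rhoGFP-negative cells. Between the P4 fractions it was 0.71 (95% interval 0.06 to 1.35, adjusted p = 0.114), with no call although the arrays did not overlap. The other Crx probe set gave 2.22, 1.37 and 0.85 for the same differences. In the limma fit over all single-gene probe sets neither Crx probe set was called between rhoGFP-negative and nestinGFP-positive cells (adjusted p = 0.0691 and 0.0686, both at 1.37).

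Nrl was the member with a call in all 3 comparisons. Its values were 13.58, 13.67 and 13.68 in rhoGFP-positive, 12.72, 12.82 and 12.21 in rhoGFP-negative and 11.68, 11.18 and 10.45 in nestinGFP-positive replicates. The rod-reporter arrays lay close together, above all the others, and the GFP-negative arrays lay between the groups. The differences were 1.06 ± 0.27 (SE, limma adjusted p = 0.0185) between the P4 fractions, 2.54 ± 0.27 (adjusted p = 7.34e-05) against the nestinGFP-positive cells, and 1.48 ± 0.27 (adjusted p = 0.0314) between rhoGFP-negative and nestinGFP-positive cells. Nrl has a single probe set here, so no second probe set checks it.

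The calls of Nrl and Crx between rhoGFP-negative and nestinGFP-positive cells were near the threshold. Leaving out an array in turn, Nrl kept differences of 1.15 to 1.77 and lost the call in 6 of 9 cases, and Crx kept 1.01 to 1.67 and lost it in 7 of 9. For Nrl the adjusted p was 0.0628 and 0.0569 without rhoGFP-positive replicates 2 and 3, 0.112 and 0.109 without rhoGFP-negative replicates 1 and 2, and 0.114 and 0.0567 without nestinGFP-positive replicates 2 and 3. Crx lost its call without the same arrays (adjusted p = 0.0743 to 0.164), without rhoGFP-positive replicate 1 (0.0646) and without all 3 replicate 1 arrays (0.0511). Between the P4 fractions Nrl lost its call without rhoGFP-positive replicate 2 or 3 (adjusted p = 0.0603 and 0.0549) or rhoGFP-negative replicate 3 (0.0723). The differences kept their direction in each case.

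The Mef2 paralogs split. Mef2d stood at 11.69, 12.11 and 11.90 in rhoGFP-positive, 11.21, 11.13 and 10.85 in rhoGFP-negative and 10.54, 10.46 and 10.05 in nestinGFP-positive replicates, with no overlap between any groups. It rose by 1.55 ± 0.17 (SE, limma adjusted p = 7.05e-05) against the nestinGFP-positive cells. Between the P4 fractions it was at 0.84 ± 0.17 (adjusted p = 0.00471), under the 2-fold minimum, and at 1.01 with a call without the replicate 1 arrays. A dimmer probe set was also called against the nestinGFP-positive cells, at 1.09, and the dimmest was at 0.65 with no call. Mef2c was dim in every group on its brightest of 5 probe sets, with means of 5.24 ± 0.14 in rhoGFP-positive, 5.23 ± 0.15 in rhoGFP-negative and 5.05 ± 0.06 in nestinGFP-positive cells (SD, n = 3), and none of the 15 probe set comparisons was called. Its difference between the P4 fractions was 0.02 (95% interval -0.24 to 0.27).

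The cone-programme receptors differed from each other as well. Rxrg stood at 9.06, 9.60 and 9.71 in the rhoGFP-positive replicates, against 7.65, 7.63 and 7.43 in rhoGFP-negative and 6.99, 7.20 and 7.32 in the nestinGFP-positive replicates. The rod-reporter arrays lay far above the rest, and the other groups lay close together without overlap. Rxrg, like Thrb, has a single probe set here, so no second probe set checks it. Rxrg rose by 1.89 ± 0.17 (SE, limma adjusted p = 4.11e-05) between the P4 fractions and by 2.28 ± 0.17 (adjusted p = 8.61e-06) against the nestinGFP-positive cells, and was at 0.40 (95% interval 0.01 to 0.78) between the other groups. Thrb was dim throughout, at 5.94, 5.07 and 5.20, at 5.12, 4.96 and 4.93 and at 4.95, 4.91 and 5.05 in the same order. Only rhoGFP-positive replicate 1 stood out, and no comparison was called, with 0.40 (95% interval -0.05 to 0.85) between the P4 fractions. Mef2c and Thrb were below the 40th percentile of mean signal over genes, so the other 8 members passed a filter on dim genes.

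**Figure D3:**
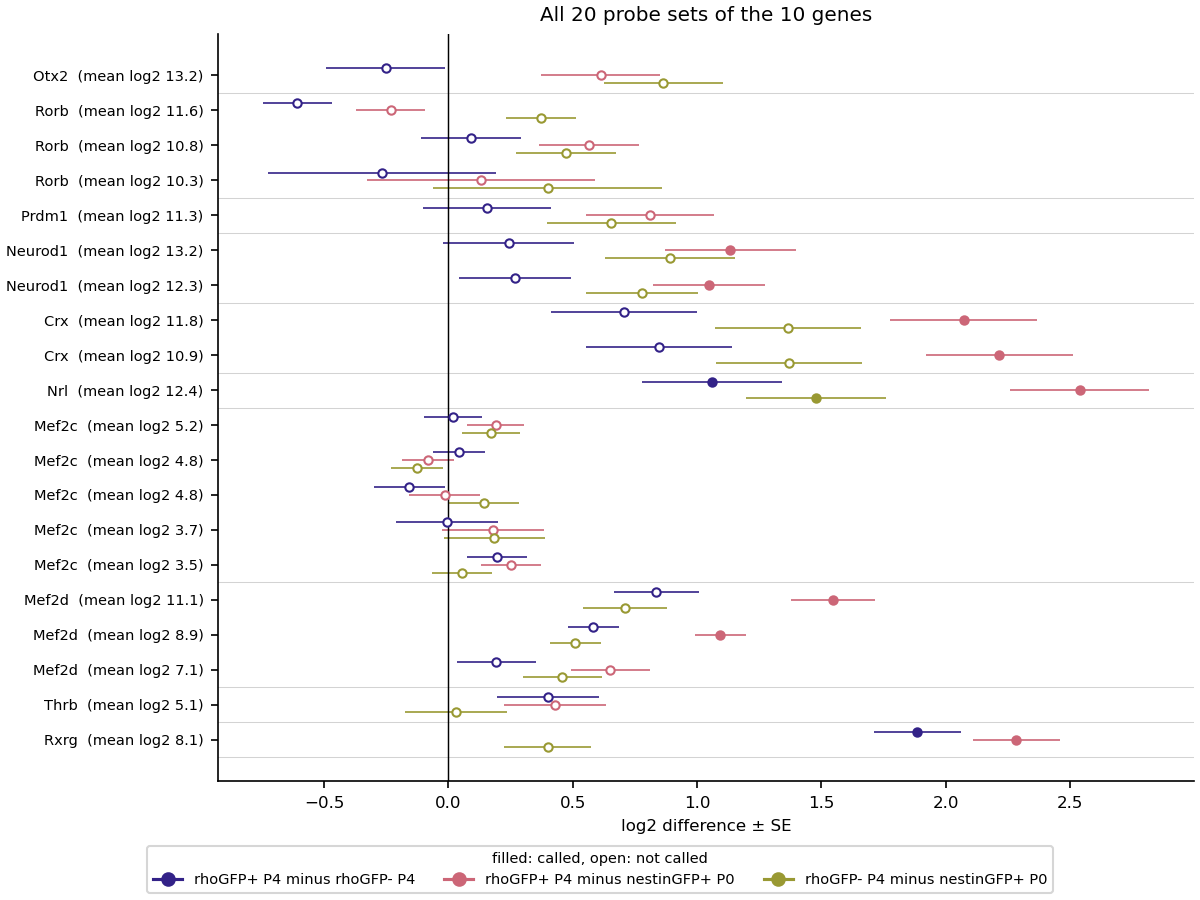
Each row is a probe set, labelled with its gene and its mean log2 value over the 9 arrays, and points give the 3 log2 differences with their SE; filled points were called in a fit over all 34945 single-gene probe sets. Both Crx and both Neurod1 probe sets lie close to each other, while those of Rorb fall on either side of 0 in both comparisons with rhoGFP-positive cells, lie above 0 in the comparison without them, and those of Mef2d shrink with signal.

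Of the 20 probe sets, 2 were called between the P4 fractions, 8 between rhoGFP-positive and nestinGFP-positive cells and 1 between rhoGFP-negative and nestinGFP-positive cells, all as higher. The shares among all single-gene probe sets were 9.05%, 13.6% and 0.607%.

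In most members the nestinGFP-positive arrays varied together. In 7 of the 10 members (Nrl, Crx, Otx2, Rorb, Prdm1, Neurod1 and Mef2d) replicate 1 was highest and replicate 3 lowest, and replicate 1 exceeded replicate 3 by 1.23 in Nrl, 1.33 in Crx, 1.12 in Otx2 and 1.21 in Neurod1. Rxrg went the other way, at -0.33, as did the dim Mef2c (-0.07) and Thrb (-0.10). The share of all genes in this order is not given here. The summed level of the 6 rod markers was 12.0, 11.4 and 10.2 on replicates 1, 2 and 3 of this group, and that of the 7 progenitor markers 14.4, 14.3 and 14.6. The actin 3' minus 5' difference was 0.40, 0.61 and 0.99. The part of these in the spread of the members was not tested.

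The targets and neighbours of these factors give the context, from lists chosen with earlier results of these data known. Of 25 measured rod genes that Nrl or Crx activates, 23 rose between the P4 fractions (3.61% of all genes were called higher), led by the channel subunit Cnga1 (4.93 ± 0.25 SE) and the retinol dehydrogenase Rdh12 (4.57 ± 0.26). The list median was 2.44. Between rhoGFP-negative and nestinGFP-positive cells, limma called 0 of the 25 rod genes, against 0.385% of all genes called higher, a share at which no call among 25 is a count near the background. An unadjusted p below 0.05 was found in 10 of the 25, against 18.1% of all genes, and the median was 0.60 against 0.03. Cnga1 stood at 6.15 in rhoGFP-negative and 6.36 in the nestinGFP-positive cells, against 11.1 in the rhoGFP-positive cells.

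Of 10 cone genes, 2 rose between the P4 fractions, Cngb3 (1.56 ± 0.12 SE), a subunit of the cone channel, and Kcne2 (1.01 ± 0.18), a potassium channel subunit. Kcne2 lost its call, at 0.74 in the lowest case, after cyclic loess and without rhoGFP-positive replicate 1 or 2, rhoGFP-negative replicate 1 or all replicate 1 arrays. The cone transducin Gnat2 was at 0.08 ± 0.21 and the cone arrestin Arr3 at 0.27 ± 0.15, and the list median was 0.46. Over all genes 3.61% were called higher and the median was 0.01. Of 5 cone markers limma called 0, and 0 had an unadjusted p below 0.05. Their log2 sum was 11.03, 11.56 and 11.83 on rhoGFP-positive replicates 1, 2 and 3 and 10.63, 10.78 and 11.45 on the rhoGFP-negative replicates. The fractions overlapped, as rhoGFP-positive replicate 1 lay below rhoGFP-negative replicate 3. At each replicate number the rhoGFP-positive array was higher, but the labels do not pair arrays by number. Against the nestinGFP-positive cells 6 of 10 cone genes rose (5.06% of all genes), led by Gnb3 (1.71 ± 0.26).

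Of 14 genes of the bipolar fate, which Prdm1 opposes, 2 were called higher and 3 lower between the P4 fractions (3.61% and 7.32% of all genes), with a median of -0.49. Lhx4 (-2.37 ± 0.18 SE), Irx5 (-2.36 ± 0.28) and Irx6 (-1.09 ± 0.19) fell, and Prkca (1.51 ± 0.13) and Gng13 (1.20 ± 0.21) rose. Irx6 lost its call at -0.92 without rhoGFP-negative replicate 3, Prkca at 0.86 and Gng13 at 0.62 when their probe sets were averaged, and Gng13 also without rhoGFP-positive replicate 3. Lhx4, a LIM-homeobox factor of bipolar cells, and Pcp2, a bipolar cell protein, were the 2 of 14 called higher in rhoGFP-negative than in nestinGFP-positive cells (1.68 ± 0.18 and 1.45 ± 0.23), against 0.385% of all genes. Pcp2 was at 0.87 when its probe sets were averaged and not called, nor with only the 6 arrays compared, without the replicate 1 arrays or without rhoGFP-negative replicate 1 or 2 or nestinGFP-positive replicate 2 or 3. The bipolar marker sum was 9.22 to 9.82 in rhoGFP-negative, 8.83 to 8.92 in the rhoGFP-positive and 8.22 to 8.69 in the nestinGFP-positive arrays, and 2 of its 4 measured markers, Vsx1 and Trpm1, were dim.

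Factors of progenitors and neurogenesis that act before the members fell in 17 of 20 between the P4 fractions (7.32% of all genes were called lower), with a median of -1.88. Olig2 (-2.59 ± 0.21 SE), the Notch target Hes5 (-2.48 ± 0.22), Pax6 (-2.43 ± 0.26) and Sox9 (-2.40 ± 0.29) led. Rax, a homeobox factor of retinal progenitors that photoreceptors also use, was at -0.15 ± 0.11, and Onecut1 at 0.00. Insm1, a zinc-finger factor of newborn neurons, was at 0.81 between the P4 fractions and rose against the nestinGFP-positive cells (1.20 ± 0.19, limma adjusted p = 9e-04).

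**Figure D4:**
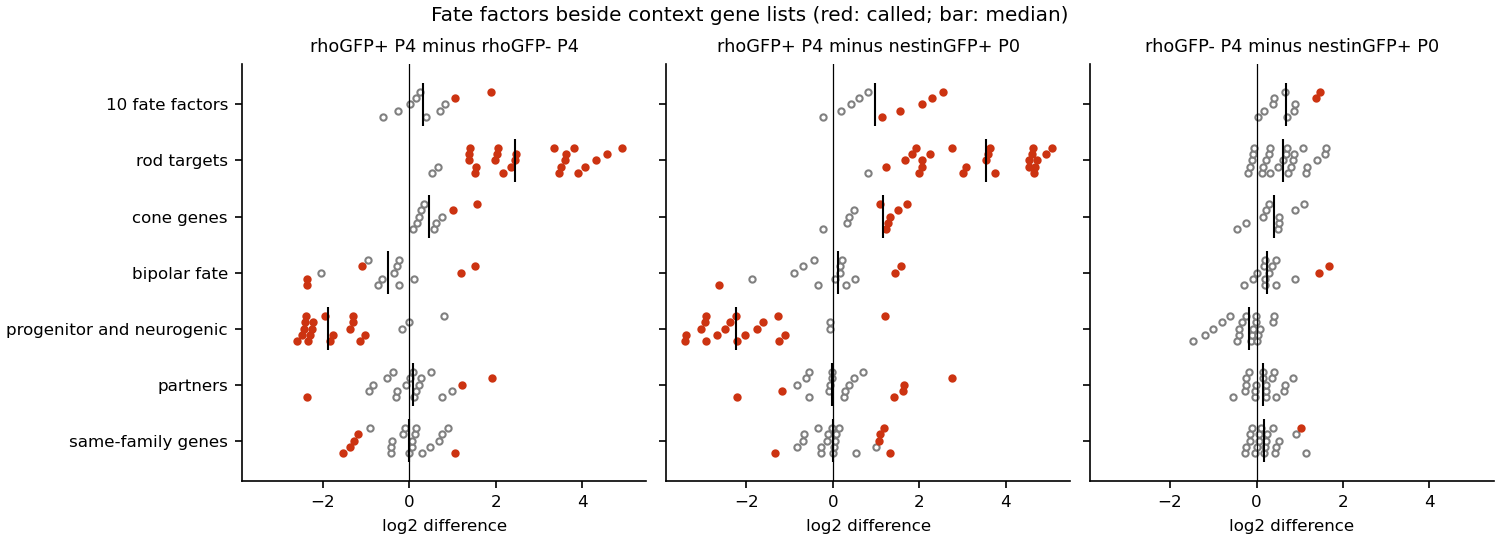
Each point is the log2 difference of a gene in the 3 comparisons, by list, with called genes in red and a bar at the list median. Medians of the 10 fate factors are 0.32, 0.97 and 0.68, those of the rod targets 2.44, 3.55 and 0.60, and those of the progenitor and neurogenic factors -1.88, -2.23 and -0.19.

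Among 19 measured partners and co-regulators, Pias3, a SUMO ligase that acts with Nrl and Crx in rods, rose by 1.92 ± 0.16 (SE, limma adjusted p = 2.63e-05) between the P4 fractions. Against the nestinGFP-positive cells it rose by 2.77 ± 0.16. The nuclear receptor coactivator Ncoa2 rose in both comparisons (1.21 ± 0.23 and 1.62 ± 0.23), and the T-box factor Tbx2 fell in both (-2.37 ± 0.15 and -2.22 ± 0.15). Sp4, a zinc-finger factor that binds Crx, rose against the nestinGFP-positive cells (1.40 ± 0.29). So did the zinc-finger factor Casz1 (1.65 ± 0.10), though at 0.91 and without a call when its probe sets were averaged, while the acetyltransferase Kat2a fell (-1.18 ± 0.15), and was at -0.84 without a call in that setting. In all, 2 of the 19 were called higher and 1 lower between the P4 fractions, where 3.61% and 7.32% of all genes were. Against the nestinGFP-positive cells 4 were called higher and 2 lower, where 5.06% and 10.5% of all genes were. The list medians were 0.09 and -0.01.

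Of 21 measured family members of the 10 factors 1 rose and 4 fell between the P4 fractions, with a median of 0.00. Over all genes 3.61% were called higher, near the share of this list, and 7.32% lower. The falls included Neurod2 (-1.38 ± 0.22 SE) and Neurod4 (-1.28 ± 0.37), whose relative Neurod1 was at 0.24. Neurod6 was called lower at low signals of 2.56 and 3.75, and lost its call without rhoGFP-negative replicate 1 or the replicate 1 arrays. Maf, in the family of Nrl, was called lower (-1.54 ± 0.45, limma adjusted p = 0.0318). Maf and Neurod4 each lost the call without rhoGFP-positive replicate 2 or 3 or rhoGFP-negative replicate 1 or 2, Maf also without rhoGFP-negative replicate 3 and Neurod4 without nestinGFP-positive replicate 2 or on its most variable probe set. Neurod2 was at -0.85 without a call when its probe sets were averaged. The 6 amacrine cell markers summed to 10.7 to 11.9 in rhoGFP-positive, 11.9 to 13.2 in rhoGFP-negative and 13.1 to 13.6 in nestinGFP-positive arrays. Of the 6, 5 were lower in the rod-reporter cells. The other, Slc6a9, was the brightest of them in rhoGFP-positive cells, at 10.8, against 10.2 in rhoGFP-negative and 8.80 in nestinGFP-positive cells. The part of amacrine cells in these falls was not tested.

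Rxra, the widely expressed relative of Rxrg, rose between the P4 fractions (1.06 ± 0.09 SE, limma adjusted p = 3.03e-05), and was at 0.45 without a call when its probe sets were averaged. Against the nestinGFP-positive cells 4 of the 21 family members were called higher and 1 lower, where 5.06% and 10.5% of all genes were. Rora (1.33 ± 0.12) and Mef2a (1.18 ± 0.20) were among those higher, whereas Mef2c was at 0.19. Rorb was at -0.23 on its brightest probe set and at 0.15 when its probe sets were averaged. Rora and Mef2a lost the call when their probe sets were averaged, at 0.998 and 0.92, and Mef2a also without nestinGFP-positive replicate 3 and on its most variable probe set. Between the P4 fractions Rora was at 0.89 and Mef2a at 0.76, with no call.

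For each called member, the genes with the most similar profile over the 9 arrays were found from the root-mean-square log2 difference after each gene was centred on its own mean. Nearest to Nrl were Arhgap31 (0.149) and Egflam (0.161), and nearest to Crx were Slc25a33 (0.131) and Tob2 (0.146). Pik3r1 (0.0873) and L3hypdh (0.125) followed Neurod1, and C1qtnf12 (0.104) and Epb41l5 (0.107) followed Mef2d. Wdr31 (0.113) and Icmt (0.137) were closest to Rxrg, with Wdr31 at 9.11 in rhoGFP-positive, 7.12 in rhoGFP-negative and 6.76 in nestinGFP-positive cells. The arrays fall into 3 groups, so these distances describe shared group levels and carry no test.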

How the data were processed

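The values deposited by the authors are log2 signals of 45101 probe sets on 9 arrays, made with RMA per the submitters' processing notes; no version is named there. Per the labels' protocols, labelling started from 200 ng of total RNA. Symbols came from the platform annotation, updated by Entrez ID; 34945 probe sets had 1 symbol, 932 several and 9160 were not listed with a gene, and 64 were controls. Each gene was represented by its brightest probe set. limma 3.58.1 (R 4.3.3; lmFit, eBayes, two-sided) fitted 3 group means to all 9 arrays, after the steps were tested on simulated data. Members and lists were chosen with earlier results of these data known. Named were all members, up to 4 called genes each way per list and comparison, uncalled genes with their values, and 2 most similar genes per called member, passing over clone and model names. Replicate numbers occur in all groups. After subtracting group means, arrays sharing a number correlated at 0.62, 0.45 and 0.45 between the P4 fractions. The correlations were 0.54, 0.15 and 0.23 between rhoGFP-negative and nestinGFP-positive arrays, and 0.52, -0.01 and 0.25 between rhoGFP-positive and nestinGFP-positive arrays. The main fit treated no arrays as pairs, and the replicate block was fitted only as an alternative. Any pairing by number would rest on these correlations and not on the labels. Alternatives covered scaling, probe set choice, a dim-gene filter, the arrays fitted, a replicate block, the variance model, thresholds and each array left out. Figures used matplotlib 3.10.9. Scan batches and detection calls were not used here.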

Additional observations from a re-analysis of the deposited data

How the results depend on the processing

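The number of members called between the P4 fractions was 2, and became 4 with no fold minimum (Mef2d higher and Rorb lower added) and 1 at an adjusted p below 0.01. Leaving out arrays gave 1 to 3. Between rhoGFP-positive and nestinGFP-positive cells it was 5, with 4 to 6 when arrays were left out. Between rhoGFP-negative and nestinGFP-positive cells it was 2, then 1 on the most variable probe set. It was 0 in limma with only the 6 arrays compared or at an adjusted p below 0.01. In the main limma fit 8 members had an unadjusted p below 0.05 in this comparison, against 18.1% of all genes. Leaving out arrays gave 0 to 4 there, in a comparison with few calls over all genes. The main fit called 10.9%, 15.6% and 0.989% of all genes in the 3 comparisons, in the order given here. The shares under each alternative are not given here. The replicate block gave 2, 5 and 2 members called and changed no call of a member. Signs turned in 3 member differences, none of them called. Mef2c between the P4 fractions was at -0.032 after cyclic loess and -0.0050 on its most variable probe set, and at -0.058 to 0.10 with arrays left out. Thrb between rhoGFP-negative and nestinGFP-positive cells was at -0.020 after quantile normalization, -0.038 after cyclic loess and at -0.039 to 0.070 with arrays left out. Rorb between rhoGFP-positive and nestinGFP-positive cells was at 0.15 when its probe sets were averaged and 0.13 on the most variable. Of 654 values of members under the alternatives, 608 kept direction and call, which includes uncalled members that stayed uncalled. The pooled count therefore says little about the calls. Between rhoGFP-negative and nestinGFP-positive cells Nrl lost its call in 8 of 22 alternatives and Crx in 11. Of the other genes 1079 of 1161 values kept direction and call. The cause of the remaining changes was not tested. Low signal limits Mef2c and Thrb.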
